A study of Drosophila melanogaster with 8 samples.

Results

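Antioxidant enzymes, the redox regulators Keap1 and cnc, and metallothioneins were followed in hearts of adult Drosophila melanogaster. The set was chosen by name as 7 genes: Sod1, Sod2, Cat, Keap1, cnc, MtnA and MtnB. A gene was taken as measured when a probe set (the group of array probes that reads 1 transcript) carried its symbol and no other. This gave 6 of the 7 genes, out of 11983 genes in all, and Sod1 was dropped because no such probe set carried its name. Where a gene had several probe sets the brightest on average stood for it, which among the 6 applied to cnc alone. The same rule was used for the other genes named below. Of these, Sod3 has 2 probe sets and sls has 3, and their dimmer ones are not shown.

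The study crossed GMH5, a driver line for the heart, either to yw or to FOXO flies, and took the hearts at 1 week or at 5 weeks of age. Offspring of GMH5 x yw are called control here and those of GMH5 x FOXO are called FOXO, and both carry GMH5. Flies were kept at 25 °C and are labelled female, the fat and pericardial cells were sucked off the heart tubes, and amplified RNA was hybridised to 8 Affymetrix arrays, 2 per group. The amount of FOXO expressed and the number of hearts per array are not given in the labels, and the labels do not say whether replicates came from separate flies. All p-values therefore rest on the spread among these samples alone, and that spread may be technical.

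Sod2, the manganese superoxide dismutase of mitochondria, turns superoxide into hydrogen peroxide, and Cat, the catalase, breaks hydrogen peroxide down. The cnc gene encodes the fly counterpart of mammalian Nrf2, a transcription factor that switches on detoxification genes, and Keap1 binds this factor and restrains it. MtnA and MtnB encode metallothioneins, small cysteine-rich proteins that bind copper and other metals and whose genes are induced by metal through the transcription factor MTF-1. In mammals, FOXO factors are known to raise the genes of manganese superoxide dismutase and catalase.

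All values below are log2 signal, so that a difference of 1 is a doubling of signal, and levels of different probe sets are not compared with each other. Means are given with their SD over n = 2 arrays, and differences (log2 fold changes) with their standard error. A difference was called when its p-value from limma, a linear model fitted over all 18769 probe sets, was under 0.05 after Benjamini-Hochberg adjustment.

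Array medians lay between 6.05 and 6.43. Replicates correlated over all probe sets at 0.995 to 0.997 in 3 groups and at 0.963 in FOXO 1 week, where 11.9% of probe sets differed by more than 1 between the replicates, against at most 0.495% elsewhere. The 7 measured heart muscle markers were above the array median on every array. With age 6 of the 7 had negative log2 fold changes in each cross, with a median of -0.35 in control and -0.40 in FOXO hearts, and Hand, a cardiac transcription factor, was the exception. The giant muscle protein gene sls fell in control (-1.08 ± 0.22, adjusted p = 0.0298 by limma) and FOXO hearts (-0.93 ± 0.22, adjusted p = 0.031), and mid, a cardiac T-box factor, fell in FOXO hearts (-1.09 ± 0.23, adjusted p = 0.0209). Although the fat and pericardial cells were sucked off, transcripts of such cells were present. On every array 5 of 6 pericardial nephrocyte markers were above the array median. Of the 6 measured fat body markers, 5 were above it in control 5 weeks and 4 in each other group. The label female does not match part of the signal. The summed signal of 12 late spermatogenesis markers, on the log2 scale, was 13.76 and 13.87 in control 1 week and 14.31 and 14.24 in FOXO 5 weeks, but 9.86 and 9.79 in control 5 weeks and 10.21 and 11.12 in FOXO 1 week. The 5 female markers of fat body and oenocytes were low on 3 arrays, at 10.03 and 9.88 (control 1 week) and 10.19 (FOXO 1 week replicate 2), and summed to between 15.43 and 15.67 on the other 5 arrays. Oocyte markers summed to 13.36 on FOXO 1 week replicate 1 and to at most 10.68 elsewhere. In such bulk samples, fewer cells of a type and less RNA per cell cannot be told apart.

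Of the 6 genes, MtnB was the 1 that passed the test, and it rose with age in both crosses. Its signal was 2.72-fold higher at 5 weeks than at 1 week in control hearts and 2.64-fold higher in FOXO hearts. Sod2 was lower and Keap1 higher at 5 weeks in each cross without passing the test, while Cat and the brighter cnc probe set stayed within a range of 0.28 on all 8 arrays. The dimmer cnc probe set spanned 1.27. No gene of the set passed in FOXO against control hearts at either age.

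**Figure D1:**
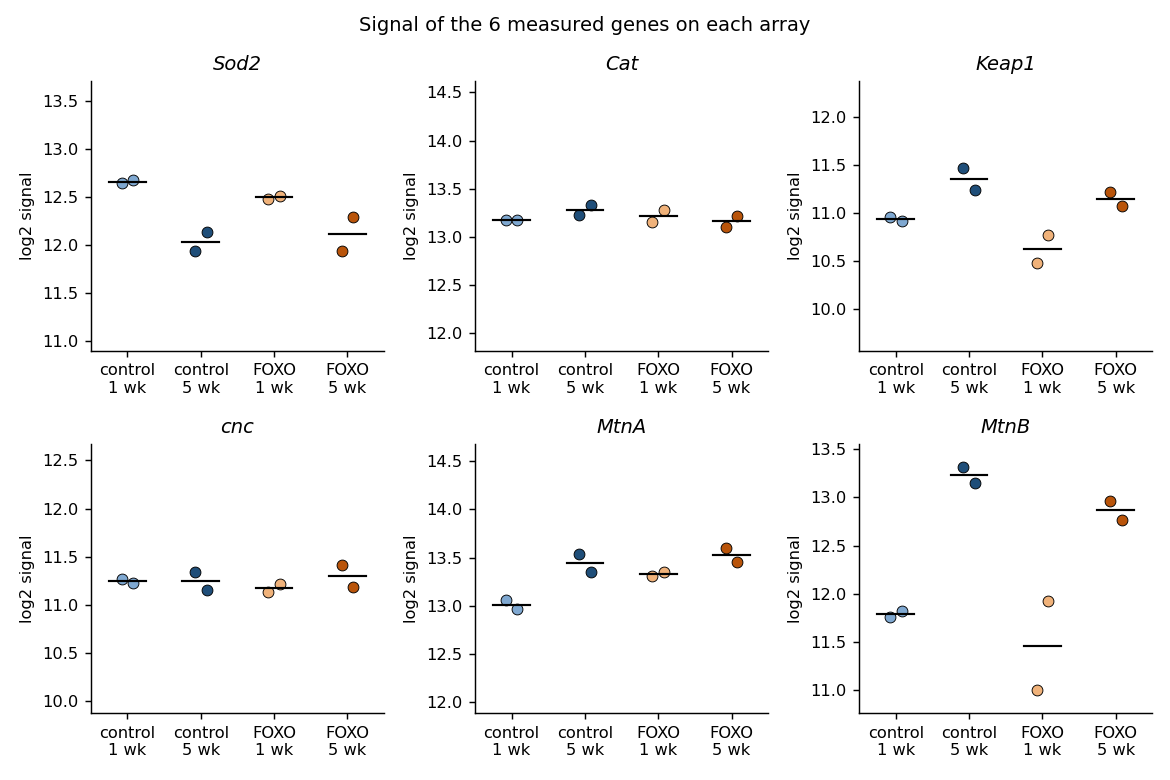
Log2 signal (vertical axis) of the 6 measured genes on each array, by group (horizontal axis), with points for arrays and bars for group means; every panel spans the same height of log2 signal but starts at its own level. MtnB spans 2.31 over the 8 arrays, and Cat spans 0.22.

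Among the enzymes, Sod2 read 12.64 and 12.67 in control 1 week, 11.93 and 12.13 in control 5 weeks, 12.48 and 12.51 for FOXO at 1 week, and 11.94 and 12.29 for FOXO at 5 weeks. Both young groups lay above both old groups without overlap, and the 2 old groups overlapped. From 1 to 5 weeks the mean went from 12.66 ± 0.02 to 12.03 ± 0.14 in control hearts, a log2 fold change of -0.62 ± 0.16 that missed the threshold of limma (adjusted p = 0.0799). In FOXO hearts it went from 12.50 ± 0.02 to 12.12 ± 0.25, a log2 fold change of -0.38 ± 0.16 (adjusted p = 0.161). The FOXO value was -0.21 without FOXO 5 weeks replicate 1. It was called with centred medians (-0.72, adjusted p = 0.0143 by limma), where the median of all probe sets was -0.49. Over both crosses the value was -0.50 ± 0.12 (adjusted p = 0.0959). The control value passed when both FOXO 1 week arrays, the pair with the widest spread, were left out of the fit (adjusted p = 0.0301), and also when either of them was. FOXO against control gave -0.16 ± 0.16 at 1 week and 0.08 ± 0.16 at 5 weeks, where the 95% interval ran from -0.31 to 0.47. Centring the array medians turned the 5 weeks value to -0.28, beside a median of all probe sets of -0.52.

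Cat read 13.18 on both control 1 week arrays, 13.23 and 13.33 in control 5 weeks, 13.15 and 13.28 for FOXO at 1 week, and 13.11 and 13.22 for FOXO at 5 weeks. The order of the group means, from control 5 weeks down to FOXO 5 weeks, rested on a range of 0.12, and each group overlapped with its neighbour in that order. The log2 fold changes lay between -0.12 ± 0.13 (FOXO against control at 5 weeks, 95% interval -0.43 to 0.20) and 0.10 ± 0.13 (age in control hearts, -0.21 to 0.42). With array medians centred, Cat was called lower in old FOXO hearts than in old controls (-0.48, adjusted p = 0.0265) and than in young FOXO hearts (-0.39, adjusted p = 0.0464). That setting moved the median of all probe sets from -0.16 to -0.52 in the first of these comparisons and from -0.15 to -0.49 in the second, so Cat lay close to the median of all probe sets there.

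Keap1, the inhibitor, was ordered control 5 weeks, FOXO 5 weeks, control 1 week and FOXO 1 week from high to low, and no neighbours in that order overlapped. It read 11.46 and 11.24 in control 5 weeks, 11.22 and 11.07 in FOXO 5 weeks, 10.95 and 10.92 in control 1 week, and 10.47 and 10.77 in FOXO 1 week. With age the log2 fold change was 0.41 ± 0.16 in control hearts (adjusted p = 0.237) and 0.52 ± 0.16 in FOXO hearts (adjusted p = 0.0801), and 0.47 ± 0.11 over both (adjusted p = 0.0989). The FOXO value was 0.37 and not called without FOXO 1 week replicate 1, and 0.18 and not called with centred medians. It was 0.67 and passed without replicate 2 (adjusted p = 0.0147), a fit in which replicate 1, the array with high oocyte markers, stands alone for young FOXO hearts. FOXO against control gave -0.31 ± 0.16 at 1 week and -0.20 ± 0.16 at 5 weeks, with adjusted p of 0.411 and 0.508, and -0.26 ± 0.11 over both ages (adjusted p = 0.602). At 5 weeks Keap1 was called lower in FOXO hearts with centred medians (-0.57, adjusted p = 0.0307), again beside a median of all probe sets of -0.52.

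The main cnc probe set read 11.26 and 11.23 in control 1 week, 11.34 and 11.16 in control 5 weeks, 11.13 and 11.21 for FOXO at 1 week, and 11.41 and 11.18 for FOXO at 5 weeks. Its group means spanned 0.12. In control hearts the difference with age was 0.00 ± 0.15 (95% interval -0.35 to 0.35), and FOXO against control was -0.07 ± 0.15 at 1 week and 0.05 ± 0.15 at 5 weeks. The second cnc probe set was dim, with a mean that exceeded that of 46.6% of all probe sets. It read 6.12 and 5.99 in control 1 week, 6.09 and 6.12 in control 5 weeks, 4.93 and 6.20 for FOXO at 1 week, and 5.62 and 5.04 for FOXO at 5 weeks. Its difference between FOXO and control at 5 weeks, -0.78 ± 0.40, had the opposite sign to that of the first probe set and did not pass (adjusted p = 0.288). The sources used here do not say which cnc transcripts each probe set reads.

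Of the metallothioneins, MtnA read 13.06 and 12.96 in control 1 week, 13.54 and 13.35 in control 5 weeks, 13.31 and 13.35 for FOXO at 1 week, and 13.60 and 13.45 for FOXO at 5 weeks. Control 1 week was the lowest group and overlapped with no other, and the 2 old groups overlapped. The log2 fold change with age was 0.44 ± 0.14 in control hearts (adjusted p = 0.148, and 0.0358 and 0.0301 with eBayes trend and robust and with arrayWeights) and 0.19 ± 0.14 in FOXO hearts (adjusted p = 0.376), which centring the medians turned to -0.15. FOXO hearts differed from control hearts by 0.32 ± 0.14 at 1 week (adjusted p = 0.334) and by 0.08 ± 0.14 at 5 weeks (adjusted p = 0.8). The difference of these effects, -0.25 ± 0.20, was not called as reported and was called with centred medians (-0.75, adjusted p = 0.0266), where the median of all probe sets was -0.72.

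MtnB read 11.75 and 11.82 in control 1 week, 13.31 and 13.15 in control 5 weeks, 11.00 and 11.92 for FOXO at 1 week, and 12.96 and 12.77 for FOXO at 5 weeks. All 4 old arrays lay above all 4 young arrays, and the young groups overlapped with each other. In control hearts it rose by 1.45 ± 0.29, from 11.79 ± 0.05 to 13.23 ± 0.11 (adjusted p = 0.0275), and in FOXO hearts by 1.4 ± 0.29, from 11.46 ± 0.65 to 12.86 ± 0.14 (adjusted p = 0.0178). The 2 age differences are taken from different arrays, but their tests share an estimate of spread from all arrays and are not independent. Over both crosses the rise was 1.42 ± 0.20 (adjusted p = 0.0231), which placed MtnB above 98.6% of all probe sets in that difference. The difference between the crosses in this rise was -0.04 ± 0.40, with a 95% interval from -1.0 to 0.91. FOXO against control gave -0.33 ± 0.29 at 1 week, where FOXO 1 week replicate 1 was 0.92 below replicate 2, and -0.37 ± 0.29 at 5 weeks, where both FOXO arrays lay below both control arrays (adjusted p = 0.628 and 0.49).

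The size of the rise in MtnB held more firmly than its call in control hearts, while in FOXO hearts both varied. In control hearts it lay between 1.37 and 1.53 with each array left out in turn, and the call was lost without control 1 week replicate 1 or 2 (adjusted p = 0.185 and 0.154), control 5 weeks replicate 1 or 2 (0.189 and 0.145) or either FOXO 5 weeks array (0.0657 for each). In FOXO hearts the rise was 0.94 without FOXO 1 week replicate 1 and 1.86 without replicate 2, and the call was lost without FOXO 5 weeks replicate 1 or 2 (adjusted p = 0.112 and 0.0783) and with only the 4 FOXO arrays in the fit (0.124). Over both crosses it was lost without any 1 array of the control or FOXO 5 weeks groups (largest adjusted p = 0.105) and with centred medians (0.0613). Without FOXO 1 week replicate 2, MtnB was called lower in FOXO than in control hearts at 1 week (-0.79, adjusted p = 0.00817), a comparison that then rests on replicate 1 alone on the FOXO side.

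**Figure D2:**
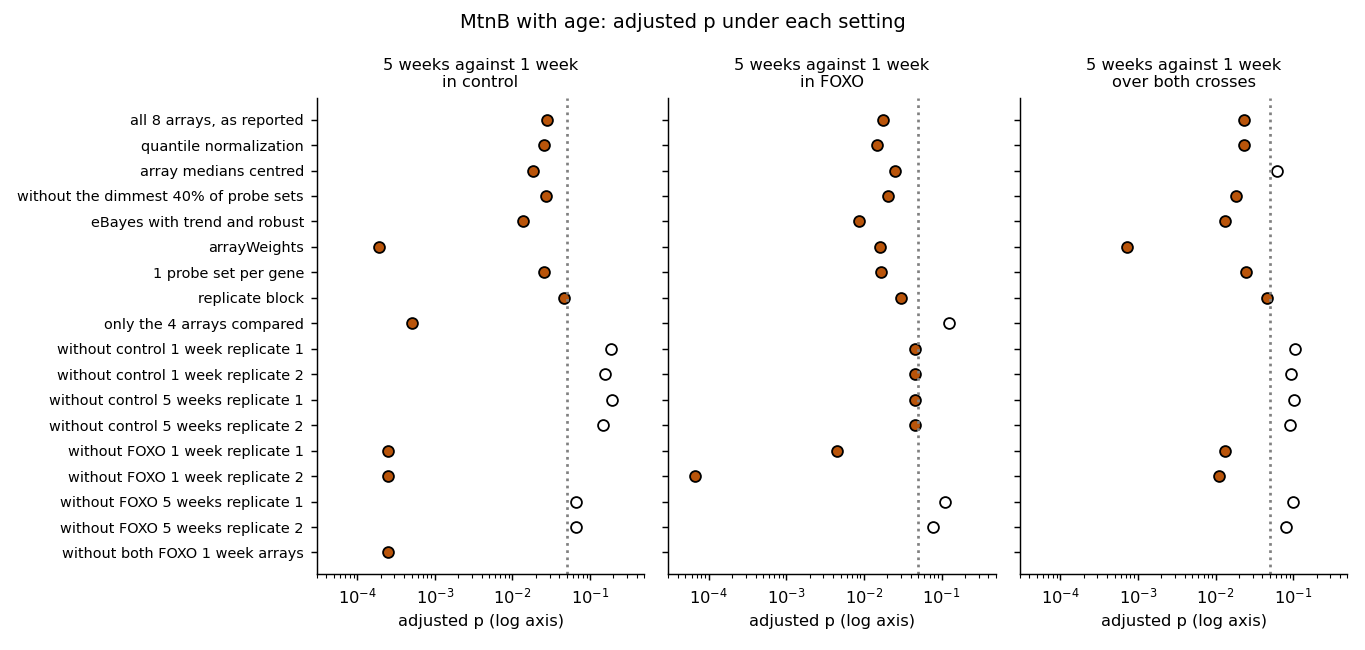
Adjusted p of the rise of MtnB with age (horizontal log axis) under each setting (vertical axis), in control hearts, FOXO hearts and both; filled points lie under 0.05, the dotted line. The points without a control array lie at 0.145 to 0.189 in control hearts, and those without a FOXO 1 week array lie left of the line in all 3 comparisons.

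Gut and Malpighian tubule, where metallothioneins are known to be expressed in flies, shared a list of 10 markers, of which 8 were measured. Uro, the tubule marker of the list, was not measured, so the tubule was not checked. The 8 measured genes are gut markers. Their summed signal on the log2 scale was 9.10 and 8.98 in young control hearts and 8.44 and 8.46 in young FOXO hearts, against 10.43 and 10.64 in old control hearts and 10.57 and 10.91 in old FOXO hearts. LysX, the brightest marker in old hearts, carried much of these sums there. It read 9.30 and 9.47 in old control and 10.11 and 10.47 in old FOXO hearts. With age 7 of 8 markers had positive log2 fold changes in control hearts and 5 of 8 in FOXO hearts, against 57.5% and 35.8% of all probe sets. In each cross 4 were called higher, against 2.34% and 9.43% of all probe sets, so part of the list moved in the direction of MtnB. Between old hearts 7 of 8 were lower in FOXO than in control, with a median of -0.72. Over all probe sets the median was -0.16 and 30.4% were higher. Of the 7 lower markers 4 were called, against 3.07% of all probe sets, while LysX was called higher, against 7.35%. Fat body markers summed to between 14.44 and 14.73 on the 8 arrays, a sum carried by the brightest of them. Of the 6 measured, the dimmer Lsp2 and Fbp2 rose with age in control hearts, by 2.17 ± 0.19 and 1.38 ± 0.17, and both were lower in old FOXO than in old control hearts (adjusted p at most 0.0101 by limma). The other 4 fat body markers had negative log2 fold changes with age in control hearts, and the median of the 6 was -0.10. Of the heart muscle markers, 6 of 7 had lower means at 5 weeks in each cross, as given above. The female fat body and oenocyte markers were higher on both old control arrays than on both young ones, as given above. The difference between 3' and 5' signal of 3 control genes, a measure of RNA integrity, was 0.957 to 1.23 at 1 week and 1.09 to 1.55 at 5 weeks. The part of all these markers and of RNA integrity in the rise of MtnB was not tested.

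Counted over the set, 1 of 6 genes was called with age in control hearts, against 6.91% of all probe sets, 2.34% higher and 4.57% lower. In FOXO hearts 1 of 6 was called, against 15.2% of all probe sets, 9.43% higher and 5.82% lower. Over both crosses 1 of 6 was called, against 1.88% of all probe sets, 1.05% higher and 0.821% lower. For FOXO against control limma called 0 of 6 at 1 week, against 4.33% of all probe sets, 0.464% higher and 3.87% lower. At 5 weeks it called 0 of 6, against 10.4%, 7.35% higher and 3.07% lower, and over both ages 0 of 6, against 0.107%, 0.0213% higher and 0.0852% lower. The change of the FOXO effect from 1 to 5 weeks gave 0 of 6, against 9.41%, 7.28% higher and 2.13% lower. In each of these 4 comparisons 0 of 6 also had an unadjusted p under 0.05, where the share of all probe sets was 15.6% for FOXO at 1 week, 24.4% at 5 weeks, 8.49% over both ages and 22.8% for the change of the effect. That threshold was met by 4 of 6 for age in control hearts, against 18.7% of all probe sets, by 2 of 6 in FOXO hearts, against 32%, and by 4 of 6 over both crosses, against 16.7%. The median log2 fold change of the 6 genes was 0.26 with age in control hearts and 0.16 in FOXO hearts, beside 0.05 and -0.15 over all probe sets. For FOXO against control it was -0.12 at 1 week and -0.03 at 5 weeks, beside 0.04 and -0.16. Comparisons that share a group, such as age in control hearts and FOXO against control at 1 week, are not independent.

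Groups did not overlap for 5 of 6 genes with age in control hearts, 4 higher and 1 lower, against 60.1% of all probe sets, 34.1% higher and 26% lower. In FOXO hearts this held for 4 of 6, 3 higher and 1 lower, against 57.7%, 19.9% higher and 37.8% lower. For FOXO against control it held for 4 of 6 at 1 week, 1 higher and 3 lower, against 44.9%, 24.4% higher and 20.5% lower. At 5 weeks it held for 3 of 6, all lower, against 62.4%, 17.3% higher and 45.1% lower. With 6 genes, nothing particular to the set is read from these counts.

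**Figure D3:**
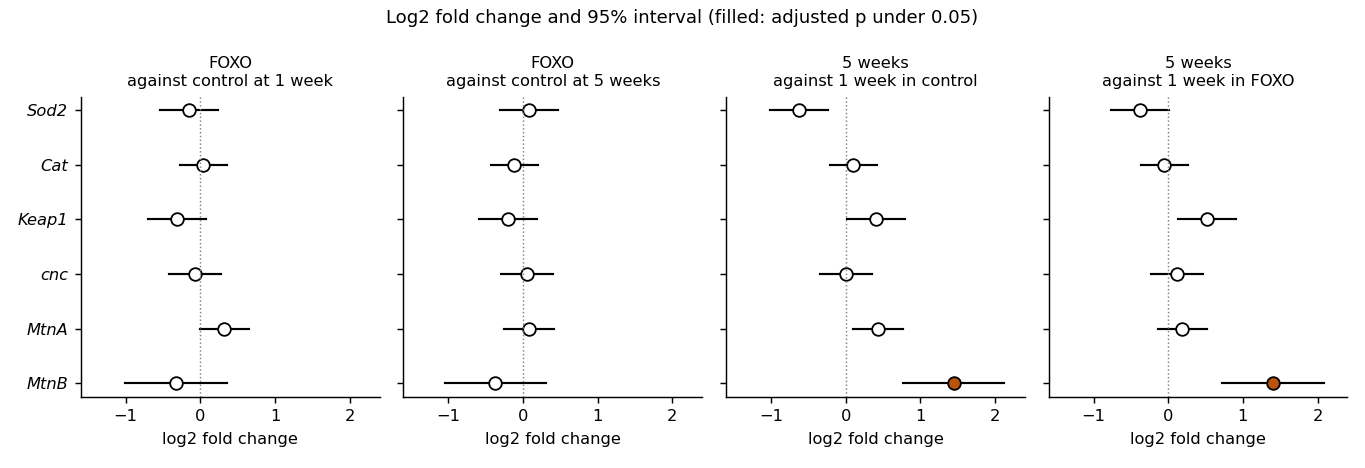
Log2 fold change (horizontal axis) of the 6 genes (vertical axis) in the 4 comparisons of pairs of groups, with 95% intervals from limma; filled points passed an adjusted p under 0.05. MtnB is filled in both age comparisons, and the intervals of cnc and Cat include 0 in all 4.

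Of the other genes of metal handling, 20 of 22 listed were measured. Among the metallothioneins, MtnD rose with age as well. It read 10.82 and 10.95 in control 1 week, 12.82 and 12.59 in control 5 weeks, 11.33 and 11.21 for FOXO at 1 week, and 12.77 and 12.72 for FOXO at 5 weeks. As for MtnB, all 4 old arrays were above all 4 young ones, and here the replicates of FOXO 1 week differed little. MtnD rose by 1.82 ± 0.15 in control hearts (adjusted p = 0.000528), by 1.47 ± 0.15 in FOXO hearts (adjusted p = 0.000477) and by 1.64 ± 0.12 over both (adjusted p = 0.00492). All 3 calls were kept under every alternative setting run, with a largest adjusted p of 0.0334. MtnC was dim, between 5.06 and 6.58 on the 8 arrays, and was not called in any of the 7 comparisons. MTF-1, which encodes the metal-sensing activator of metallothionein genes, read 10.06 and 10.11 in control 1 week and 10.64 and 10.60 in control 5 weeks, and did not pass (adjusted p = 0.359). In FOXO hearts MTF-1 read 10.02 and 10.49 at 1 week and 10.75 and 10.03 at 5 weeks, so the ages overlapped, and it was not called.

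**Figure D4:**
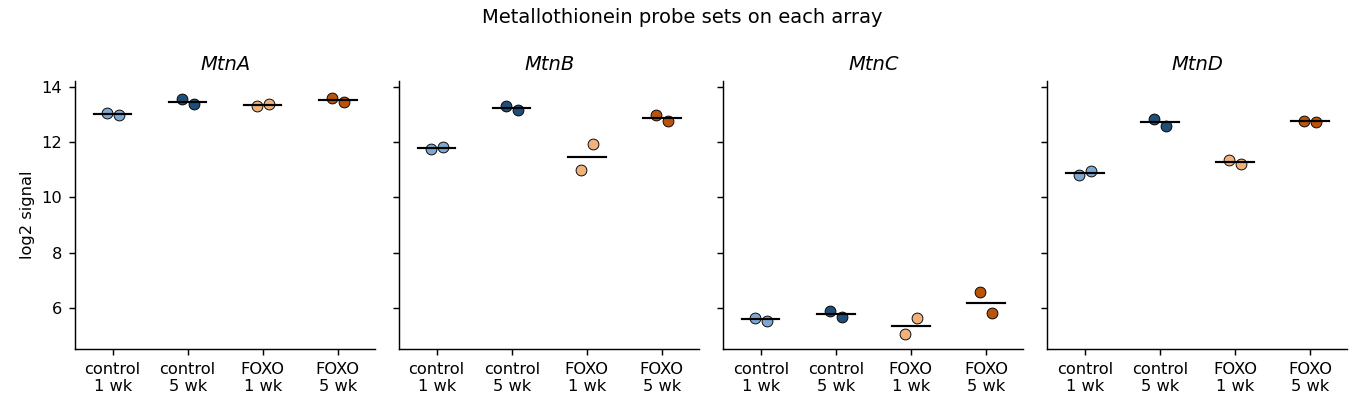
Log2 signal (vertical axis) of 4 metallothionein probe sets on each array, by group (horizontal axis), with points for arrays and bars for group means; heights of different genes are not comparable. MtnB and MtnD are higher on all 4 arrays at 5 weeks than on all 4 at 1 week.

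Most other calls of the metal list fell on Ctr1C, Fer3HCH and Mco1, which had low signal. Ctr1C, a copper importer known from the male germline, lay between 2.86 and 3.23 in 3 groups and at 5.04 and 5.27 in FOXO 5 weeks, and was called higher there than in old controls (adjusted p = 0.00019). The lowest values on the arrays were 2.14 to 2.35, and Ctr1C was not shown to be above background in the other groups, so no size is read from this difference. Fer3HCH, a mitochondrial ferritin known from the testis, was at 6.15 ± 0.09 in control 1 week and 6.69 ± 0.20 in FOXO 5 weeks, and at 4.73 ± 0.09 in control 5 weeks and 4.94 ± 0.47 in FOXO 1 week. In old hearts it was higher in FOXO by 1.96 ± 0.23 (adjusted p = 0.00131), and in young hearts lower by 1.21, a log2 fold change of -1.21 ± 0.23 (adjusted p = 0.0361) that was lost under 11 of 17 alternatives. Fer3HCH was high in the groups that are high in late spermatogenesis markers, given above, while Ctr1C was high in only 1 of those 2 groups, FOXO 5 weeks. The part of these markers was not tested. Mco1, a multicopper oxidase gene, fell in old FOXO hearts against old controls (-0.76 ± 0.16, adjusted p = 0.0288), a call lost without any 1 control array or FOXO 5 weeks replicate 2 (largest adjusted p = 0.173).

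In counts out of 20 measured genes, the metal list had 1 higher and 1 lower with age in control hearts, against 2.34% and 4.57% of all probe sets. In FOXO hearts it had 3 higher and 0 lower, against 9.43% and 5.82%. For FOXO against control it had 0 higher and 1 lower at 1 week, against 0.464% and 3.87%. At 5 weeks it had 2 higher and 1 lower, against 7.35% and 3.07%. The difference of effects gave 2 higher and 2 lower, with Ctr1A, a copper importer of the plasma membrane, at -1.49 ± 0.33 (adjusted p = 0.0322), lost with arrayWeights and without any 1 of 5 arrays (largest 0.134). For that difference the shares of all probe sets were 7.28% higher and 2.13% lower. The median of the metal list with age was 0.17 in control and 0.13 in FOXO hearts, beside 0.05 and -0.15 over all probe sets. With so few genes, nothing particular to the list is read from these counts.

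Of 24 listed enzymes of reactive oxygen and glutathione metabolism 18 were measured, and the testis copies TrxT and Grx1t were called in 5 of the 7 comparisons each. TrxT, the thioredoxin of the testis, was at 9.56 ± 0.01 in control 1 week and 9.65 ± 0.07 in FOXO 5 weeks, and at 5.70 ± 0.01 in control 5 weeks and 5.51 ± 0.51 in FOXO 1 week. It fell by 3.85 on the log2 scale with age in control hearts (adjusted p = 0.000201) and rose by 4.14 ± 0.23 in FOXO hearts (adjusted p = 4.49e-05). Trx-2, the general thioredoxin, lay between 12.77 and 12.89 on all 8 arrays. Of the glutaredoxins, Grx1t, the testis copy, was at 8.28 ± 0.10 and 8.13 ± 0.01 in control 1 week and FOXO 5 weeks and at 4.77 ± 0.25 and 5.48 ± 0.64 in the other two groups. Grx1, the general copy, ran from 11.19 to 12.22 and was not called, with a log2 fold change with age of -0.53 in control and -0.39 in FOXO hearts (adjusted p = 0.2 and 0.21 by limma). The testis copies are high on the arrays with high late spermatogenesis markers, whose part was not tested.

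Sod3, the extracellular superoxide dismutase, read 9.16 and 9.10 in control 1 week, 8.66 and 8.90 in control 5 weeks, 9.96 and 9.41 for FOXO at 1 week, and 7.65 and 7.90 for FOXO at 5 weeks. Old FOXO hearts were the lowest group and overlapped with no other. These values and all tests of Sod3 are those of the brighter of its 2 probe sets. Sod3 fell by 1.91 on the log2 scale with age in FOXO hearts (SE 0.21, adjusted p = 0.000924), a call kept under every alternative run. Against old controls it was lower, with a log2 fold change of -1.0 ± 0.21 (adjusted p = 0.0269), which did not pass without any 1 control or FOXO 5 weeks array (largest 0.162). Between the ages the FOXO effect differed by -1.56 ± 0.30 (adjusted p = 0.0185), lost without any 1 control array or FOXO 5 weeks replicate 1 (largest 0.0916). MsrA, which repairs oxidised methionine, was lower in young FOXO hearts than in young controls (-1.22 ± 0.25, adjusted p = 0.0435), and its FOXO effect differed between the ages by 1.85 ± 0.35 (adjusted p = 0.0167). Both were lost without any 1 control or FOXO 5 weeks array (largest 0.279 and 0.083), and the first also with centred medians and with only the 4 compared arrays. Trxr-2, a thioredoxin reductase, was higher in old FOXO hearts than in old controls at low signal (1.37 ± 0.29, adjusted p = 0.0272), lost without any 1 control array or FOXO 5 weeks replicate 2 (largest 0.168). MsrA had means of 12.44 in control 1 week, 11.42 in control 5 weeks, 11.22 in FOXO 1 week and 12.05 in FOXO 5 weeks, and Trxr-2 had 5.39, 4.58, 4.86 and 5.95. Both were thus higher in the 2 groups with high late spermatogenesis markers, whose part was not tested.

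**Figure D5:**
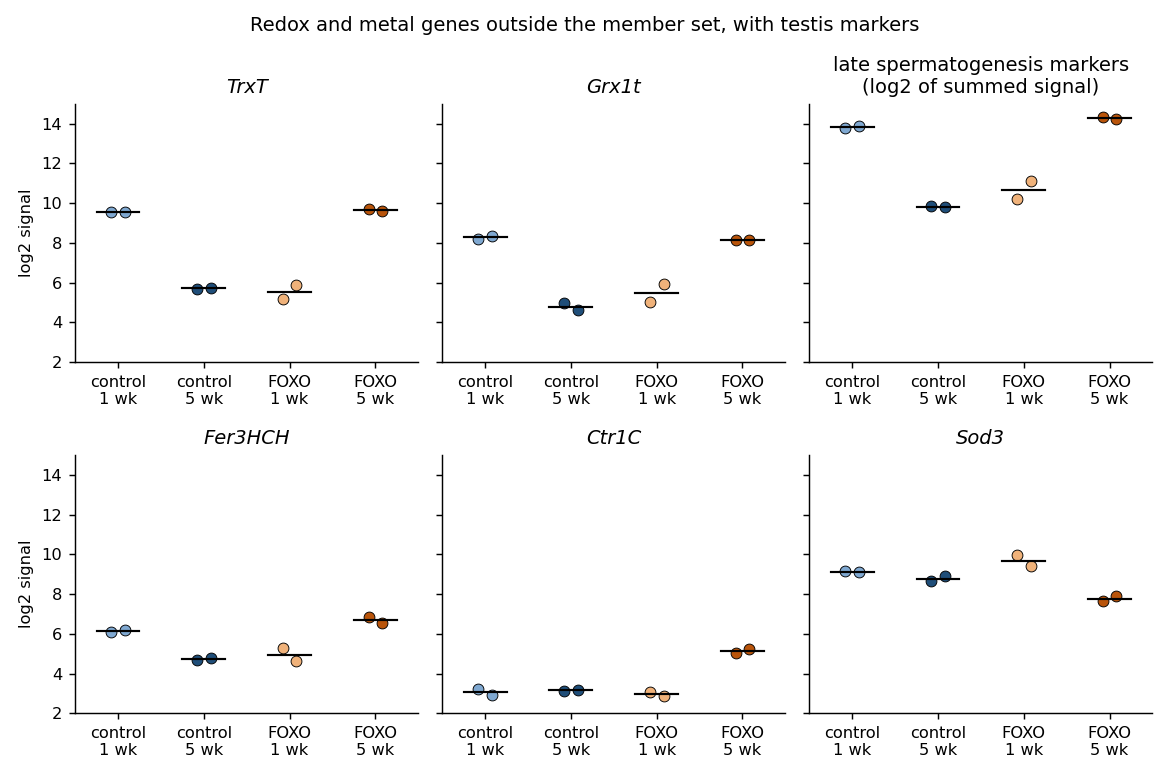
Log2 signal (vertical axis) on each array by group (horizontal axis) for 5 redox and metal genes, and the log2 of the summed signal of 12 late spermatogenesis markers; points are arrays and bars are group means. TrxT, Grx1t and Fer3HCH are high in control 1 week and FOXO 5 weeks like the markers, Ctr1C is high in FOXO 5 weeks, and Sod3 is lowest there.

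In counts out of 18 genes, this enzyme list had 0 higher and 2 lower with age in control hearts, against 2.34% and 4.57% of all probe sets. With age in FOXO hearts it had 3 higher and 1 lower, against 9.43% and 5.82%. For FOXO at 1 week it had 0 higher and 3 lower, against 0.464% and 3.87%. At 5 weeks it had 3 higher and 1 lower, against 7.35% and 3.07%. Its median log2 fold change was -0.20 and -0.16 with age and 0.01 and -0.01 for FOXO, in the same order, beside 0.05, -0.15, 0.04 and -0.16 over all probe sets. For FOXO over both ages and for age over both crosses limma called 0 of 18, against 0.107% and 1.88% of all probe sets. An unadjusted p under 0.05 was met by 1 and 3, against 8.49% and 16.7%. With so few genes, nothing particular to the enzyme list is read from these counts.

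All 14 genes listed as partners or known responders of cnc were measured. 1 of the 14 is fs(1)K10, an ovary gene with no known part in this pathway, and the counts and medians of the list include it. GstD5, a glutathione S-transferase of the delta class, rose the most, from 8.14 ± 0.04 to 11.62 ± 0.09 with age in control hearts (3.48 ± 0.23, adjusted p = 0.000286) and from 7.09 ± 0.49 to 10.31 ± 0.13 in FOXO hearts (3.22 ± 0.23, adjusted p = 0.000104). Both calls were kept under every alternative run. In old hearts GstD5 was lower in FOXO than in control, with a log2 fold change of -1.31 ± 0.23 (adjusted p = 0.0112), a call lost without any 1 of the 5 weeks arrays (largest 0.0943). Cyp6a8, a cytochrome P450, rose with age in FOXO hearts (1.91 ± 0.42, adjusted p = 0.0242). Its FOXO 1 week arrays read 8.0 and 9.47, and the rise was 1.17 without the first and 2.64 without the second. The call was lost without any 1 control or FOXO 5 weeks array and with only the 4 FOXO arrays (largest 0.145).

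The other members of the cnc list moved less. GstD1, a commonly used reporter of cnc activity in flies, lay between 13.11 and 13.36 on the 8 arrays, and maf-S, the dimer partner of cnc, between 11.35 and 11.68. With age the list had 1 of 14 genes higher in control hearts, against 2.34% of all probe sets, and 2 in FOXO hearts, against 9.43%. It had 0 lower in each, against 4.57% and 5.82%. For FOXO against control limma called 0 of 14 at 1 week, against 4.33% of all probe sets, with 2 at an unadjusted p under 0.05, against 15.6%. At 5 weeks it called 0 higher and 1 lower, against 7.35% and 3.07%. With so few genes, nothing particular to the cnc list is read from these counts. Its median with age was 0.21 in control and 0.27 in FOXO hearts, beside 0.05 and -0.15 over all probe sets, and for FOXO it was -0.11 at 1 week and -0.03 at 5 weeks.

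Genes alike in pattern were sought for MtnB, the called gene of the set, among 7549 genes with a mean above the median of all probe sets. The 3 highest Pearson correlations over the 8 arrays were those of AttD, a gene of the attacin family of antibacterial peptides (0.994), CG8066 (0.992) and CG43085 (0.992). AttD read 7.10 and 7.14 in control 1 week, 10.24 and 9.72 in control 5 weeks, 5.97 and 7.20 for FOXO at 1 week, and 9.34 and 8.84 for FOXO at 5 weeks. Like MtnB, it was high on the old arrays and lowest on FOXO 1 week replicate 1. The 8 points fall into young and old arrays and share this 1 low array, so these correlations only describe the ranking.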

How the data were processed

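The authors deposited 1 log2 value per probe set and array, and the log2 scale was inferred from their range, 2.14 to 14.1 over the 18769 probe sets that are not array controls. The sources used here do not state summarisation or normalization; limma is named, with no version, per the submitters' processing notes. Of the deposited probe sets, 13647 carried 1 gene symbol, 402 several and 4720 none. Symbols came from the platform annotation and were updated by gene ID through the RefSeq gene table. The precision of each value is limited by the number of arrays.

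All 8 arrays were fitted with limma 3.58.1 under R 4.3.3. A model with 1 mean per group (4 residual degrees of freedom) gave 5 contrasts, and an additive model of cross and age (5 residual degrees of freedom) gave the other 2. Tests were two-sided, with Benjamini-Hochberg adjustment over 18769 probe sets. The procedure was tested on simulated data.

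The members, gene lists and marker lists were chosen with earlier results of these data known. Pathway list genes are named where they passed, up to 4 per list and comparison, and otherwise as examples chosen after their values were seen. For each called member the 3 genes most alike are named. Alternatives were quantile normalization, arrayWeights, centred array medians, a fit to only the 4 compared arrays, 1 probe set per gene, eBayes with its trend and robust options, removal of the dimmest 40%, the second cnc probe set, a threshold of 0.1 on the adjusted p, the replicate block, and omission of each array in turn. Leaving out both FOXO 1 week arrays was chosen after seeing the data. Replicate numbers were not taken to pair the arrays.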

Additional observations from a re-analysis of the deposited data

How the results depend on the processing

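Precision is limited by 2 arrays per group, and the normalization is not known. The FOXO 1 week pair, the widest in spread, enters every fit except those that leave it out. Of 750 values of single genes of the set under the alternatives, 670 kept direction and side of the threshold, 16 lost a call, 24 gained one and 40 changed sign. In none of those 40 did the value pass as reported or under the alternative. Counts of genes called were 0, 0, 1, 1, 0, 0 and 1 in the order FOXO at 1 week, FOXO at 5 weeks, age in control, age in FOXO, difference of effects, FOXO over both ages and age over both crosses. Centred medians gave 2 for FOXO at 5 weeks, 3 for age in FOXO, 2 for the difference and 0 for age over both. Over all probe sets that setting gave 8997 calls for the difference, against 1766 as reported, and 121 for age over both, against 352. For age in control, eBayes with trend and robust gave 3, arrayWeights 4, an adjusted p under 0.1 gave 2, only the 4 compared arrays 2, and leaving out both FOXO 1 week arrays 2. Calls over all probe sets were 1350, 3681, 1781, 3627 and 3279 in these settings, in the same order, against 1297 as reported. For age in FOXO, an adjusted p under 0.1 gave 2 and only the 4 arrays 0, where all probe sets had 4409 and 1421 calls, against 2861. For age over both, arrayWeights gave 4 and an adjusted p under 0.1 gave 3, where all probe sets had 2463 and 870 calls, against 352. With each array left out in turn the counts ran from 0 to 1 for FOXO at 1 week, 0 to 2 for age in control, 0 to 2 for age in FOXO and 0 to 1 for age over both. The cause of these shifts was not tested.

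Sign changes were these. With centred medians cnc had 0.065 for FOXO at 1 week, -0.31 for FOXO at 5 weeks, -0.21 for age in FOXO, -0.38 for the difference and -0.025 for age over both. Sod2 had -0.28 for FOXO at 5 weeks and -0.26 for the difference, MtnA -0.29 for FOXO at 5 weeks and -0.15 for age in FOXO, Keap1 -0.39 for the difference, and Cat -0.065 for age over both. Quantile normalization gave cnc -0.0037 for age in control and 0.014 for FOXO over both, and arrayWeights gave Sod2 0.0043 and cnc 0.058 for FOXO over both. The second cnc probe set gave -0.78 for FOXO at 5 weeks, -0.24 for age in FOXO, -0.28 for the difference and -0.095 for age over both. With each array left out, cnc ran from -0.069 to 0.023 for FOXO over both, -0.089 to 0.092 for age in control and -0.064 to 0.17 for FOXO at 5 weeks. Sod2 ran from -0.093 to 0.26 for FOXO at 5 weeks and -0.13 to 0.0079 for FOXO over both, MtnA from -0.016 to 0.17 for FOXO at 5 weeks, and Keap1 from -0.042 to 0.26 for the difference. Cat ran from -0.027 to 0.10 for FOXO at 1 week, -0.12 to 0.010 for age in FOXO and -0.013 to 0.064 for age over both, and MtnB from -0.79 to 0.13 for FOXO at 1 week and -0.50 to 0.42 for the difference. Of 37 calls of list genes 22 were kept under every alternative that could be run, and 0 changed sign.

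Over all probe sets, with centred medians 13.9% of calls were higher for FOXO at 5 weeks, against 70.6% as reported, and 16.7% for age in FOXO, against 61.8%. The calls numbered 9573 against 1956 in the first and 9415 against 2861 in the second. The replicate block left the count of called genes at 1 for age in control, 1 for age in FOXO and 1 for age over both, and at 0 elsewhere, with 213 against 352 calls over all probe sets for age over both and 1 against 20 for FOXO over both ages. Same-numbered arrays deviated together at correlations from 0.013 to 0.332 between groups, and not every pair was above 0.1, so the numbers were not taken as pairs. The highest, 0.332, was between control 5 weeks and FOXO 5 weeks, and a shared replicate effect at that age was not tested.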

Other observations

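On FOXO 1 week replicate 1, the array with high oocyte markers, 7 of the 14 cnc list genes were more than 0.5 below replicate 2 on the log2 scale, against 18.4% of all probe sets. Cyp6a2, a cytochrome P450, read 9.50 against 11.14, Cyp6a8 8.0 against 9.47, and the glutathione S-transferase gene GstD2 9.80 against 11.17. Of the 18 reactive oxygen enzymes 7 were lower by that much, among them the sulfiredoxin gene Srx at 8.91 against 10.34 and the peroxiredoxin gene Prx2540-2 at 10.94 against 12.23, and of the 6 genes of the set 1 was, MtnB. Gclc and Gclm are on both the cnc and the enzyme list and are counted in each. In the other direction the ovary thioredoxin gene dhd read 13.05 on replicate 1 against 5.45, and the zinc transporter gene ZnT35C 11.57 against 4.47. These genes were chosen after their values were seen, and the replicates have no test between them.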
